A study of Homo sapiens with 36 samples.

Results

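MYC and 7 genes known as its targets, NCL, NME1, SRM, CAD, HSPD1, PPAT and TERT, were followed across 36 human lymphoma cell lines. They were picked by symbol, and all 8 were among the 2549 genes of a targeted RNA-Seq panel. Each line gave 1 library, made from a lysate plated at 10000 cells per well. The labels name the line and give no genotype, treatment or lymphoma type. Type was therefore assigned from general knowledge of each line. There were 14 lines of germinal centre B-cell-like (GCB) diffuse large B-cell lymphoma, 5 of the activated B-cell-like (ABC) kind, 9 of mantle cell lymphoma and 5 of marginal zone lymphoma or hairy cell leukaemia. The chronic lymphocytic leukaemia line MEC1 and the diffuse large B-cell lines FARAGE and RCK8, of unsettled subtype, entered no test between types. A line is a single culture grown from one tumour, so lines of a type served as its replicates, and no line was measured again.

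MYC is a transcription factor that pairs with MAX and binds the E-box, the DNA letters CACGTG, near the start of many genes. Its known targets carry out growth: making ribosomes, nucleotides and polyamines, and folding mitochondrial proteins. MYC is often activated in aggressive B-cell lymphoma by translocation or by signals from upstream. Nucleolin (NCL) works in ribosome assembly. NME1 is a nucleoside diphosphate kinase, SRM is spermidine synthase, CAD carries out the opening steps of pyrimidine synthesis and PPAT the committed step of purine synthesis. HSPD1 is the mitochondrial chaperonin, and TERT is the catalytic subunit of telomerase.

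The E-box lay close to the start of most of the target genes, and the stretches around it are shown because it is the element that MYC is known to bind. RefSeq windows on GRCh38.p14, from 250 bases before to 50 after a start site, were matched by symbol to the 7 targets. The letters CACGTG, which read the same on both strands, were found in 5 of the 7 (71.4%), against 7.26% of all 35116 windows and 8.77% of 27305 genes. The windows of NCL and CAD did not hold these letters. Each stretch is written 5′ to 3′ on the strand of its gene, with the E-box in capitals.
NME1: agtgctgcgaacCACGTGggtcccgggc
SRM: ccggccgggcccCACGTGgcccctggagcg
HSPD1: cggccctggcgaCACGTGaaaaaatcaccc
PPAT: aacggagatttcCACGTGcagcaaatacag
TERT: gaccgcgcttccCACGTGgcggagggactg
The NME1 stretch (chr17:51153581-51153608, plus strand) has its E-box 34 bases after the start site. The E-box of SRM (stretch chr1:11060200-11060229, minus strand) lies 199 bases before it. For HSPD1 (chr2:197500345-197500374, minus strand) the distance is 88 bases, for PPAT (chr4:56435780-56435809, minus strand) 182 and for TERT (chr5:1295214-1295243, minus strand) 163. A match is a description of the letters. Binding was not measured in these libraries.

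The unit of level is CPM, the count relative to the library's total after correction by a TMM factor. TMM factors are computed so that most genes keep the same level between libraries. CPM values are not divided by gene length, so levels are compared between lines and not between genes. Total counts per library ran from 6422917 to 13451527, with a median of 10476681. The smallest TMM factor was 0.602, in OCILY8, and the largest 1.87, in MEC1, the library with the most counts on control probes. B-cell markers (5 of 6 in the panel) summed to between 718 CPM in UPN1 and 15800 CPM in SUDHL4. T-cell markers (2 of 4 in the panel) summed to at most 500 CPM (REC1), monocyte or macrophage markers (4 of 4) to at most 942 CPM (OCILY19), stromal markers (3 of 3) to at most 366 CPM (GRANTA519) and endothelial markers (3 of 3) to at most 1080 CPM (HBL1). Their part in the results was not tested. Fewer cells with a transcript and less transcript per cell cannot be told apart in such lysates.

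MYC (GENCODE release 29 on GRCh38: chromosome 8, 127735434 to 127741434, plus strand) was detected in every line and spread over a 41.7-fold range. It was lowest in the mantle cell line UPN1, at 167.8 CPM, and highest in the GCB line OCILY19, at 6999 CPM, with a median of 1399 CPM. With library size alone as the scale the range was 26.8-fold. After OCILY19 came JEKO1 at 6091 CPM, OCILY8 at 5809, MAVER1 at 4465 and SSK41 at 4461. The low end, above UPN1, held U2932 at 187.2 CPM, DOHH2 at 329.9, GRANTA519 at 365.5, SUDHL2 at 381.6 and MEC1 at 382.4. Both ends of the order thus held mantle cell lines and GCB lines. Of the 35 neighbouring pairs in the order, 11 had overlapping 95% Poisson intervals, which cover counting error only. The SD of log2 CPM was 1.40 for MYC, at percentile 62.9 among the genes tested, whose median SD was 1.20.

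The relatives of MYC had few counts in many lines. MYCN reached 10 CPM in 10 of 36 lines and MYCL in 25. The MYCN levels went from 0.227 CPM (SUDHL4) up to 96.4 CPM (MEC1), and those of MYCL from 2.31 CPM (GRANTA519) up to 58.6 CPM (MEC1). MAX, the partner of MYC, ran from 58.3 CPM in RCK8 to 559 CPM in JEKO1. MEC1 held the highest level of both MYCN and MYCL, in the library with the most counts on control probes, whose part in this was not tested.

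NCL (chromosome 2, 231453531 to 231483641, minus strand), which overlaps snoRNA genes, ran from 904.9 CPM in U2932 to 13980 CPM in OCILY8, with a median of 4376. NME1 (chromosome 17, 51153536 to 51162428, plus strand), which overlaps the NME1-NME2 readthrough, ran from 252.9 CPM in DOHH2 to 3737 CPM in OCILY8, with a median of 1270. SRM (chromosome 1, 11054584 to 11060024, minus strand) ran from 183.8 CPM in MEC1 to 1634 CPM in GRANTA519, with a median of 813.3. OCILY8, which had the smallest TMM factor, was thus highest for both NCL and NME1 with TMM, and its SRM, 1613 CPM, was close to the highest. With library size alone it ranked 3 for NCL, 5 for NME1 and 9 for SRM. REC1 was then highest for NCL and NME1, as it was with reference genes as the scale. CAD (chromosome 2, 27217390 to 27243943, plus strand) ran from 71.19 CPM in DOHH2 to 594.4 CPM in REC1, with a median of 214.8. HSPD1 (chromosome 2, 197486581 to 197516737, minus strand) ran from 1046 CPM in MEC1 to 8786 CPM in OCILY8, with a median of 3483. DOHH2 and MEC1 recurred at the low ends.

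PPAT and TERT lay at opposite ends of the spread. PPAT (chromosome 4, 56393362 to 56435615, minus strand) ran from 148.2 CPM in HBL1 to 827.5 CPM in U2932, with a median of 334. Its SD of 0.52 log2 units lay at percentile 2.04 among the genes tested, and 30 of 35 neighbouring lines had overlapping intervals. TERT (chromosome 5, 1253147 to 1295069, minus strand) ran from 9.03 CPM in SUDHL16 to 1405 CPM in OCILY19, a range of 155.6-fold, with a median of 67.12 CPM. Its SD of 1.70 lay at percentile 81.6, the highest of the 8 genes. TERT reached 10 CPM in 35 of 36 lines. High TERT was found in MINO (598.2 CPM), JEKO1 (597.4), SUDHL6 (540.2) and OCILY7 (433.4) besides OCILY19, and low TERT in HAIR_M (11.57) and SUDHL4 (12.35) besides SUDHL16. Under TMM these low TERT levels did not go with low MYC in SUDHL4 and SUDHL16, which had MYC of 2374 and 1762 CPM, both above the median. With library size alone MYC was 1607 CPM in SUDHL4 and 1170 in SUDHL16, against a median of 1512. With reference genes as the scale their MYC ranked 22 and 24 of 36, below the median. The SDs of NCL, NME1, SRM, CAD and HSPD1 lay between percentile 16.6 (HSPD1) and 31.7 (NME1).

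**Figure D1:**
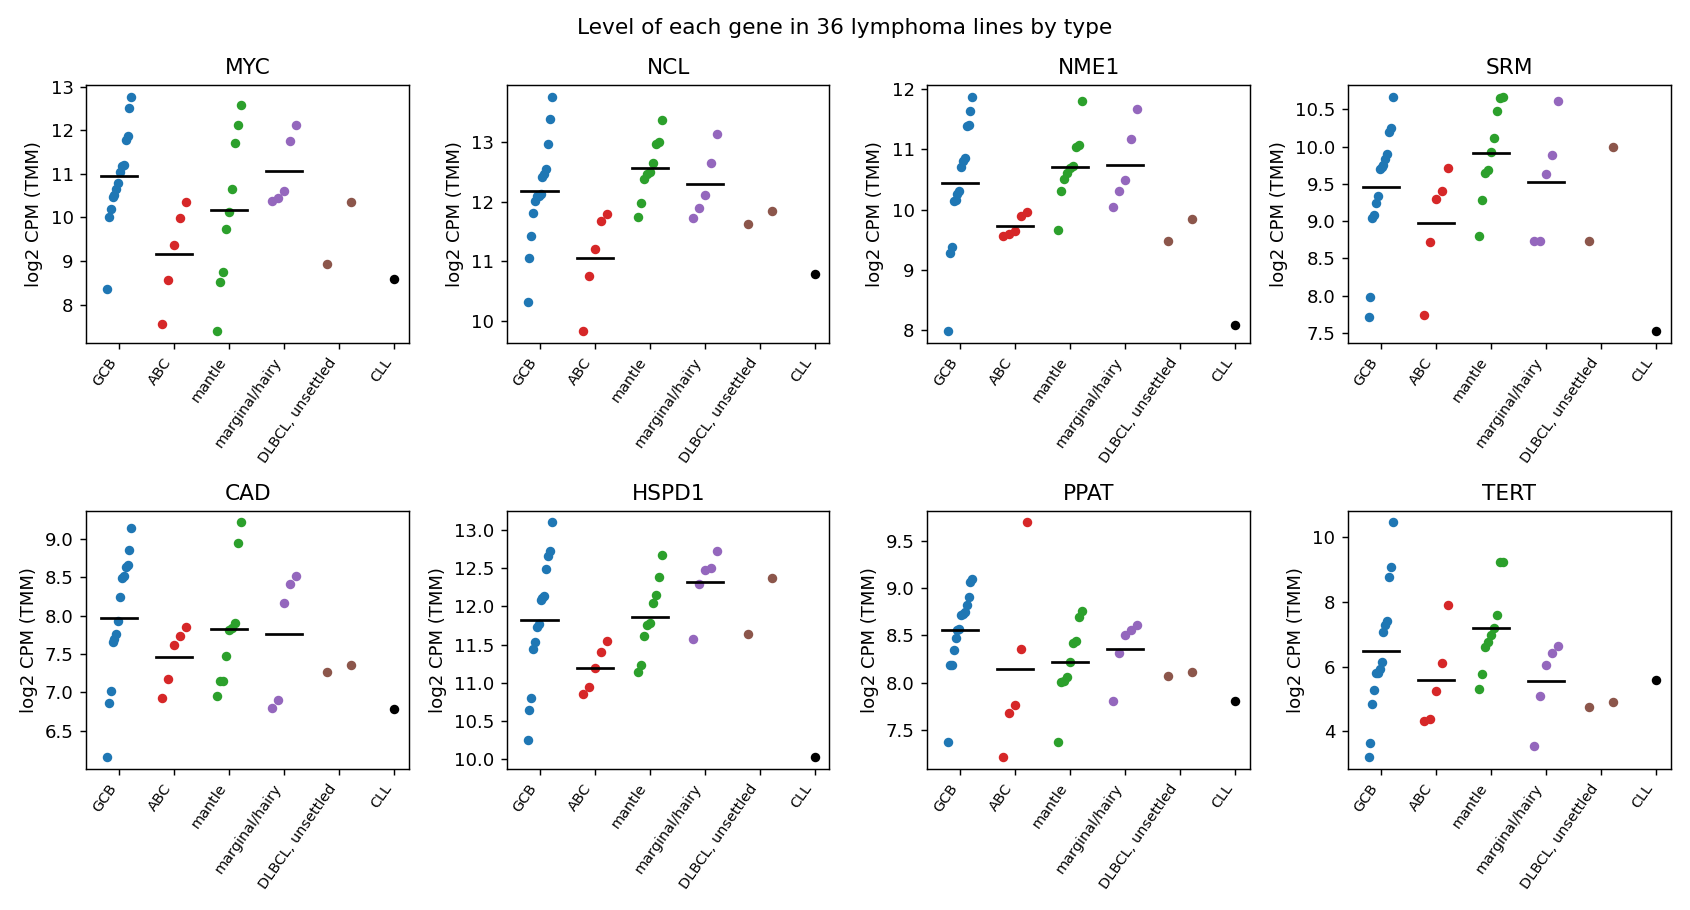
Level of each gene (vertical axes, log2 CPM with TMM factors) in the 36 lines, placed by lymphoma type; each point is 1 line and bars mark means of types with 5 lines or more. MYC in the 5 ABC lines ended at 1314 CPM, below the lowest marginal zone or hairy cell line at 1336 CPM, with overlapping 95% Poisson intervals. The PPAT point of U2932, 827.5 CPM, stands above the other ABC lines.

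Lymphoma type was compared next. MYC in the 5 ABC lines was 187.2 CPM in U2932, 381.6 in SUDHL2, 665.6 in TMD8, 1016 in RIVA and 1314 in HBL1. In the 5 marginal zone or hairy cell lines it was 1336 CPM in HC_1, 1387 in HAIR_M, 1568 in VL51, 3456 in KARPAS1718 and 4461 in SSK41. Those values did not overlap, but the 95% Poisson intervals of HBL1 (1290 to 1337 CPM) and HC_1 (1315 to 1358 CPM) did. The 14 GCB lines had a median of 1930 CPM, from 329.9 in DOHH2 to 6999 in OCILY19, and the 9 mantle cell lines a median of 1123 CPM, from 167.8 in UPN1 to 6091 in JEKO1. On the log2 scale MYC was 9.17 ± 1.13 (SD, n = 5) in ABC, 11.06 ± 0.81 (n = 5) in marginal zone or hairy cell, 10.95 ± 1.11 (n = 14) in GCB and 10.18 ± 1.76 (n = 9) in mantle cell lines.

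No member passed the test over the 4 types. By edgeR's quasi-likelihood test with Benjamini-Hochberg adjustment over 2363 genes in 33 lines, 140 genes (5.92%) differed between types and 0 of the 8 members did. At an unadjusted p under 0.05 there were 465 genes and 1 member, NCL (p = 0.0145, adjusted p = 0.129). MYC had p = 0.0765 and an adjusted p of 0.32. DESeq2's test over the types called 273 genes and limma-voom 59, and neither called a member.

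Pairs of types gave 48 comparisons over the 8 members, of which 0 passed edgeR's quasi-likelihood test and 14 had an unadjusted p under 0.05. All of these but TERT between marginal zone or hairy cell and GCB lines involved the same ABC lines. The share of all genes at that unadjusted level was not counted. Over all 2363 genes the share passing ran from 0% (marginal zone or hairy cell against ABC) to 4.19% (mantle cell against GCB). Among the 48 the lowest adjusted p was 0.145, for NCL between mantle cell and ABC lines. NCL was 904.9 CPM in U2932, 1722 in SUDHL2, 2352 in HBL1, 3279 in RIVA and 3546 in TMD8, and the mantle cell lines ran from 3412 in SP49 to 10610 in REC1 with a median of 5825. Only TMD8 reached into the mantle cell range. The difference was 1.58 log2 units higher in mantle cell lines (95% interval 0.65 to 2.51). MYC was lower in ABC than in GCB lines by an estimate of -1.85 log2 units (interval -3.25 to -0.45, adjusted p = 0.19). DESeq2 called that difference, at -1.88 (adjusted p = 0.0418), and called NCL both against GCB (-1.31, adjusted p = 0.0397) and for mantle cell against ABC (1.55, adjusted p = 0.0343). How many of all genes DESeq2 called in single pairs of types was not counted.

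ABC lines lay below all marginal zone or hairy cell lines for 3 of the 8 members, MYC, NME1 and HSPD1. Over the 2363 genes tested 22 (0.931%) did not overlap between these groups in either direction. This pair of types was singled out after its values were seen. NME1 ran from 755 to 991.6 CPM in ABC lines and from 1057 to 3230 CPM in marginal zone or hairy cell lines. HSPD1 ran from 1864 to 3009 CPM against 3051 to 6791 CPM. For HSPD1, as for MYC, the 95% Poisson intervals of the nearest lines, HBL1 (2973 to 3044 CPM) and HC_1 (3018 to 3084 CPM), overlapped. With library size as the scale the groups overlapped for MYC and HSPD1, and 1 member, NME1, did not overlap, beside 17 genes (0.719%). With reference genes as the scale NME1 overlapped too, with ABC lines up to 1314 and HC_1 at 1121. For the adjusted test of this pair the values were 0.598 for MYC, 0.629 for NME1 and 0.448 for HSPD1, so none passed. In that test 0 of the 2363 genes passed.

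PPAT and CAD, both enzymes of nucleotide synthesis, had the lowest F statistics over the types among the members, 0.487 and 1.00. PPAT in the ABC lines was 148.2 CPM in HBL1, 204.1 in SUDHL2, 216.7 in TMD8, 327 in RIVA and 827.5 in U2932, so that this type held both the lowest and the highest line of all. The other medians were 399.7 CPM in GCB, 298.5 in mantle cell and 362.4 in marginal zone or hairy cell lines. PPAT in mantle cell minus ABC lines was -0.01 log2 units (interval -0.68 to 0.66) and the F test over types gave p = 0.694. CAD gave p = 0.404. SRM, the polyamine enzyme, had medians of 626.9 CPM in ABC, 796.7 in marginal zone or hairy cell, 839.9 in GCB and 977.3 in mantle cell lines (p = 0.145 over the types).

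TERT varied within types as well as over all lines. Its median was 37.88 CPM in ABC lines (19.59 in SUDHL2 to 238.6 in RIVA), 65.31 in GCB lines (9.03 in SUDHL16 to 1405 in OCILY19) and 125.7 in mantle cell lines (39.55 in JVM2 to 598.2 in MINO). In the marginal zone or hairy cell lines it was 11.57 CPM in HAIR_M, 33.68 in HC_1, 66 in SSK41, 85.88 in KARPAS1718 and 100.2 in VL51. The GCB range thus held the whole range of every other type. The level in SUDHL16 rested on 69 counts, with a 95% Poisson interval of 7.03 to 11.4 CPM. TERT in marginal zone or hairy cell minus GCB lines was -1.92 (interval -3.85 to 0.00277, adjusted p = 0.382).

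Across all 36 lines, 5 of the 7 targets rose with MYC when levels were scaled by TMM. The slope is the change of a gene, in log2 units, per log2 unit of MYC, from edgeR's quasi-likelihood test adjusted over 2405 genes. TERT had the steepest slope of the 7, 0.52 ± 0.17 (SE, adjusted p = 0.0237). NME1 followed at 0.28 ± 0.10 (adjusted p = 0.0351), CAD at 0.27 ± 0.08 (0.0229), SRM at 0.25 ± 0.09 (0.0351) and HSPD1 at 0.25 ± 0.08 (0.0236). NCL, at 0.21 ± 0.09 (0.0823), and PPAT, at 0.06 ± 0.06 (0.476), did not pass. In the same fit 246 genes (10.2%) rose and 383 (15.9%) fell. With lymphoma type as a term in the fit 0 of the 7 passed and 4 genes rose. That fit used only the 33 lines of the 4 types, so the set of lines changed as well. The slopes were then 0.51 ± 0.19 for TERT (adjusted p = 0.0746), 0.32 ± 0.10 for SRM (0.0618) and 0.28 ± 0.11 for CAD (0.1). Those of NME1 and HSPD1 were 0.22 ± 0.12 (0.225) and 0.21 ± 0.09 (0.119). Each of the 5 slopes was far below 1, the value at which a target would change in proportion to MYC.

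These calls changed with the scaling. With library size alone 0 of the 7 targets passed, and 2 of 2429 genes (0.0823%) rose. With the log2 TMM factor as a term in the TMM fit 0 of 7 passed, and 0 of 2405 genes (0%) rose. Upper-quartile factors and factors from the reference genes ACTB, GAPDH, PPIA, TBP and YWHAZ also gave 0 of 7. Of all genes 2 of 2425 (0.0825%) and 3 of 2429 (0.124%) rose there. Median-of-ratios factors gave 6 of 7, all but PPAT, where 373 of 2402 genes (15.5%) rose. The authors' log2 values with limma gave 5 of 7, with NCL in and TERT out, where 423 of 2405 genes (17.6%) rose. At an unadjusted p under 0.05 there were 6 members with TMM, 2 (CAD and TERT) with the factor in the fit and 1 (TERT) with library size. Of all genes 441, 122 and 51 rose at that level in these 3 fits.

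The slope of TERT was between 0.40 and 0.56 under all 7 scalings and fits, whereas HSPD1 ran from 0.07 with the factor in the fit to 0.32 with the authors' values. The log2 TMM factor itself moved with the members: its Pearson r over 36 libraries was -0.736 for HSPD1, -0.67 for NME1, -0.601 for MYC and -0.0821 for TERT. Since TMM levels are divided by that factor, these correlations are partly built in. With library size the r was -0.296 for HSPD1, -0.377 for MYC and 0.142 for TERT. The part of the factor in the slopes was not tested beyond these fits.

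Scaling also moved the other genes, so each slope can be read against the median slope of all genes tested. That median was 0.04 with TMM, -0.11 with library size and 0.02 with the factor in the fit. The median slope of the 7 targets lay 0.20 above it with TMM, 0.23 above with library size, 0.24 with upper-quartile factors, 0.26 with reference genes and 0.09 with the factor in the fit. These distances are from genes of all levels, and slopes went with abundance under TMM and library size. The 602 genes with the highest mean level include NCL, NME1, SRM, HSPD1 and PPAT. Under TMM 139 of them rose and 2 fell, with a median slope of 0.15. Of the 601 with the lowest, 6 rose and 205 fell, with a median of -0.38. With library size these medians were -0.00769 and -0.395, and -0.0316 in the 601 genes that include CAD and TERT. The median slope of the targets was 0.119 there. With the factor in the fit the order was reversed, at -0.00877 and 0.058. An excess over genes of like level was not tested.

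**Figure D2:**
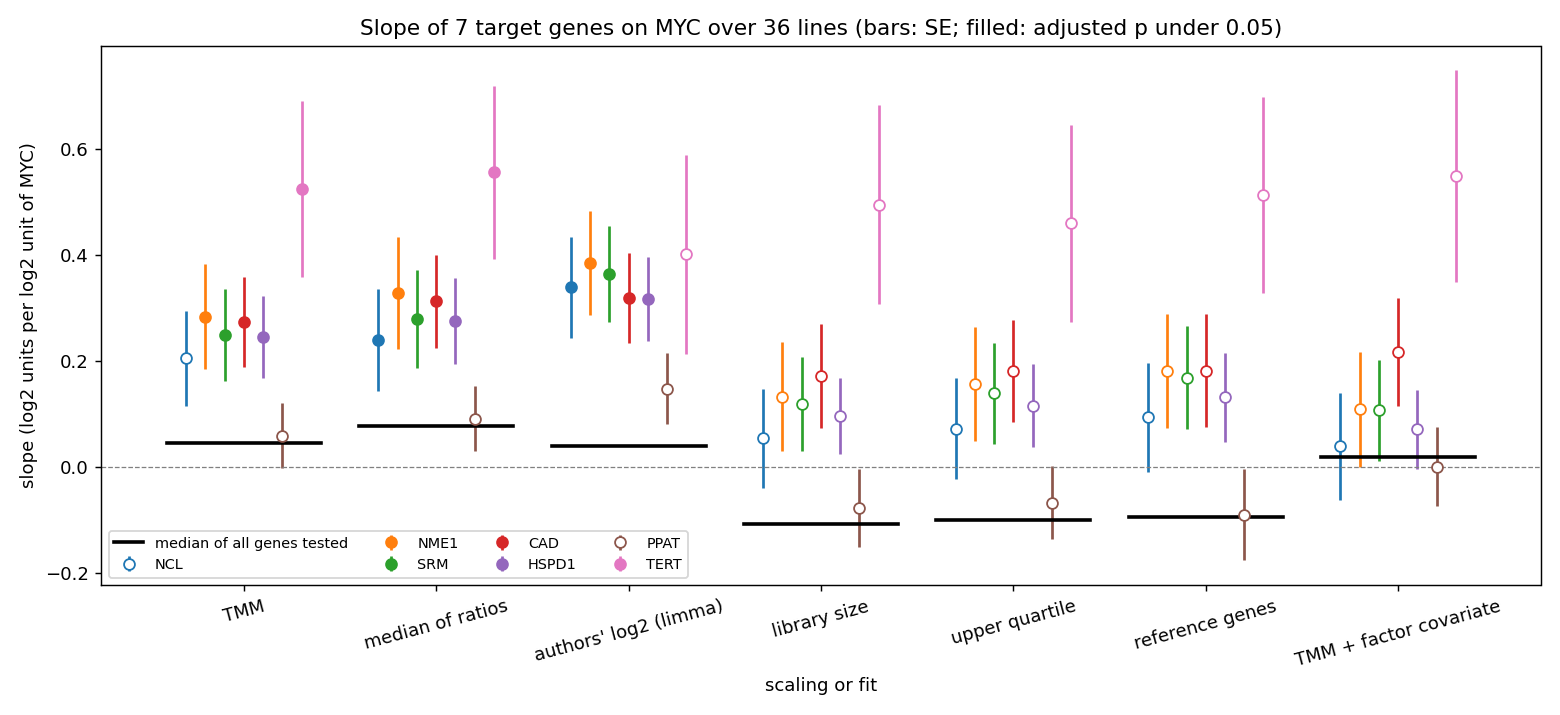
Slope of each of the 7 targets on MYC over 36 lines (vertical axis, log2 units per log2 unit of MYC) under 7 scalings or fits (horizontal axis); bars are SE, filled points have an adjusted p under 0.05 and black lines mark the median slope of all genes tested. Filled points number 5 with TMM, 6 with median of ratios, 5 with the authors' values and 0 in the other 4.

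Single libraries also carried the calls. Leaving out each line in turn left between 1 and 6 of the 7 targets past the threshold, with 1 when OCILY8 was left out and 6 without GRANTA519. Without MEC1 there were 3, with CAD, HSPD1 and TERT in, while NME1 (0.27, adjusted p = 0.0611) and SRM (0.23, adjusted p = 0.0649) no longer passed. Leaving out DOHH2 also gave 3, again without NME1 (0.25, adjusted p = 0.0556) and SRM (0.22, adjusted p = 0.0563). Over all genes the number rising moved as well, from 246 with every line to 173 without MEC1, 215 without DOHH2 and 324 without GRANTA519. Without OCILY8 only 66 genes rose and 119 fell. The TERT slope was 0.345 (adjusted p = 0.159) without OCILY19, the line with the most TERT and the most MYC. Of the single lines left out, only OCILY8 took away the call of CAD (highest adjusted p over the 36 fits 0.0675), as did HSPD1 (0.086).

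PPAT depended on U2932 more than any other target did. In that line MYC was 187.2 CPM, near the lowest, and PPAT 827.5 CPM, the highest. Without it the PPAT slope was 0.17 ± 0.06 (adjusted p = 0.0315) and passed the test. Without both UPN1 and U2932, the lines farthest from the median of MYC, it was 0.26 ± 0.06 (adjusted p = 0.00667). Pearson's r of PPAT with MYC was 0.314 over 36 lines and 0.695 over those 34. The PPAT slope was -0.07 with upper-quartile factors, -0.08 with library size and -0.09 with reference genes, so its sign turned with the scaling. Over the 34 lines without UPN1 and U2932 Pearson's r was positive under those scalings too (0.446, 0.406 and 0.475), as was Spearman's rho over all 36 (0.185, 0.213 and 0.205).

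As a description over 36 lines, which share library and scaling factor between both axes, Spearman's rho with MYC under TMM was 0.582 for HSPD1, 0.52 for CAD, 0.493 for NME1, 0.475 for PPAT, 0.468 for SRM, 0.441 for NCL and 0.188 for TERT. Rank and slope thus order TERT differently. With library size rho was 0.346 for HSPD1, 0.343 for CAD and 0.154 for TERT. Within the 14 GCB lines Pearson's r under TMM was 0.845 for PPAT, 0.65 for CAD, 0.638 for SRM, 0.623 for NME1, 0.613 for HSPD1, 0.603 for NCL and 0.114 for TERT. Within the 9 mantle cell lines it was 0.111 for PPAT, 0.323 for CAD, 0.517 for SRM, 0.344 for NME1, 0.489 for HSPD1, -0.192 for NCL and 0.506 for TERT. TERT was thus the 1 target with the higher r in mantle cell lines under TMM. With reference genes as the scale HSPD1 was higher there too, at 0.486 against 0.447 in GCB lines. A test of whether slopes on MYC differ over the 4 types called 0 of 2362 genes. PPAT had an unadjusted p of 0.00134 there (adjusted 0.452) and NCL 0.035 (adjusted 0.749). GCB and mantle cell slopes were not compared on their own.

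**Figure D3:**
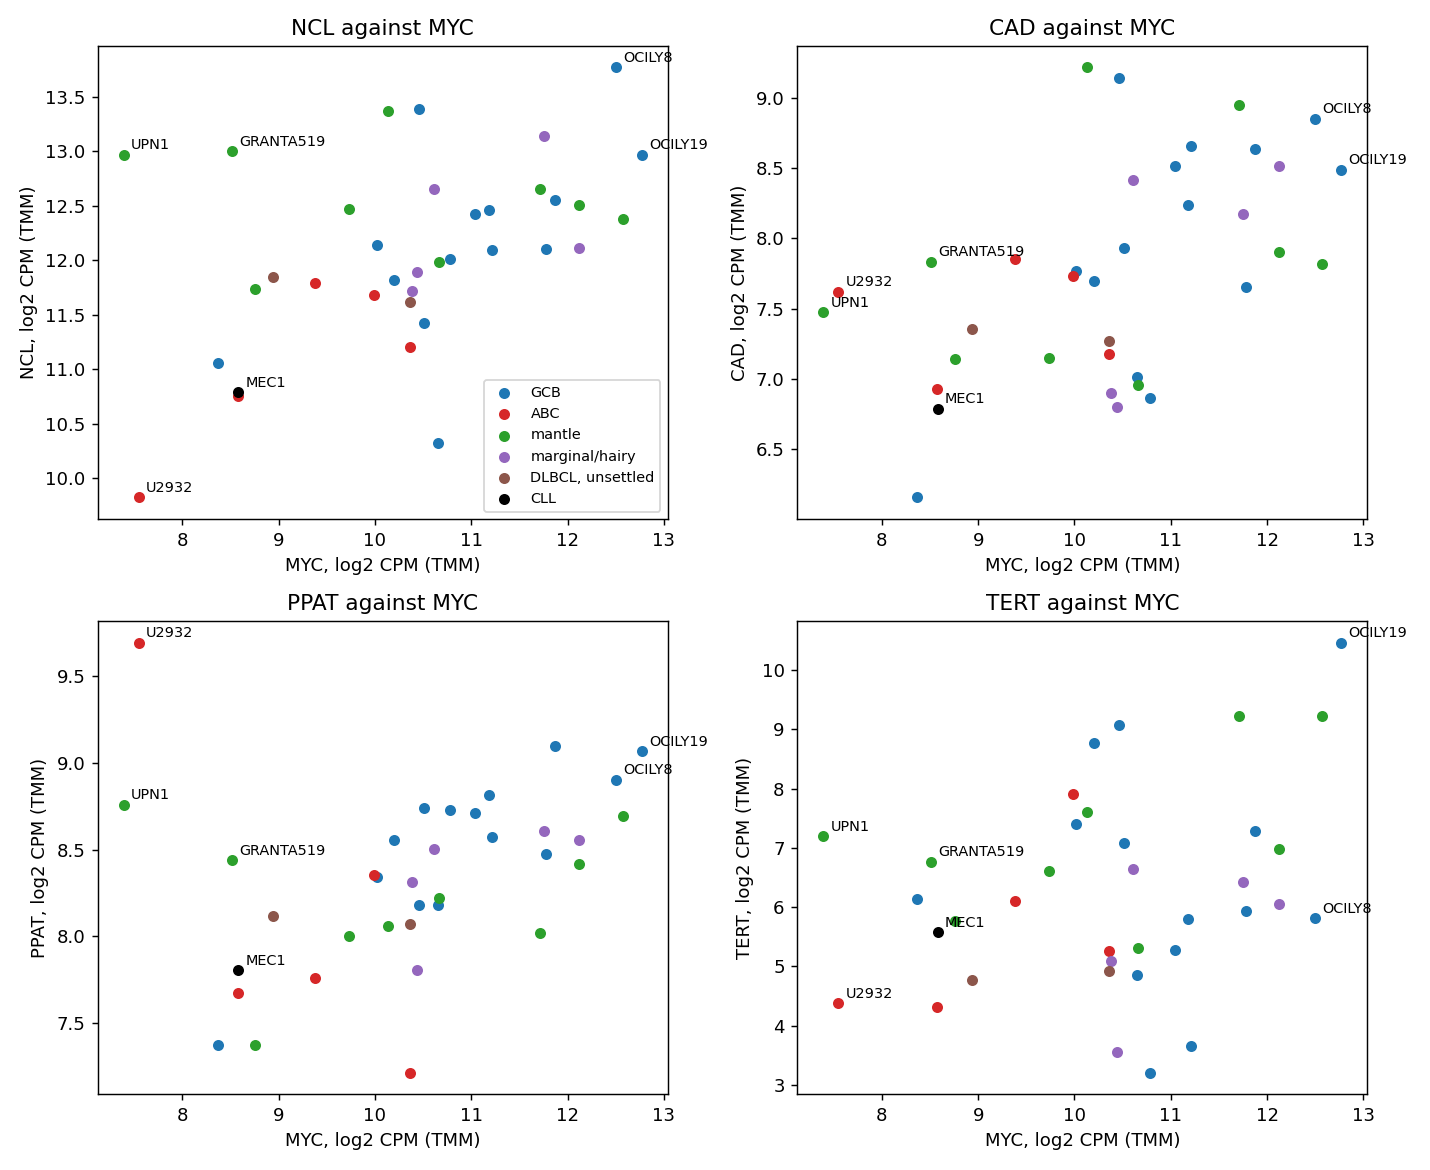
NCL, CAD, PPAT and TERT (vertical axes) against MYC (horizontal axes), all in log2 CPM with TMM factors; each point is 1 of 36 lines, coloured by type. UPN1 and GRANTA519 pair low MYC (167.8 and 365.5 CPM) with NCL of 8015 and 8215 CPM, and U2932 pairs low MYC with the highest PPAT, 827.5 CPM.

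Some lines broke from the trend for several targets together. GRANTA519, a mantle cell line, had MYC of 365.5 CPM yet NCL of 8215, HSPD1 of 6557 and the highest SRM, 1634 CPM. UPN1 had the lowest MYC with NCL of 8015 CPM, although its NME1 was 812.2 and its SRM 446.5 CPM, the lowest of both among mantle cell lines. PPAT in UPN1 was 432.6 CPM, rank 6 of 36, and TERT 146 CPM, rank 10, so its targets did not move as one. WSU_DLCL2 went the other way, with MYC of 1607 CPM above the median and NCL of 1277, SRM of 252.3 and HSPD1 of 1221 CPM near the low ends. REC1 and SUDHL6 had MYC of 1123 and 1411 CPM, close to the median, with the highest CAD levels of all, 594.4 and 565.3 CPM. All of these levels are those with TMM. With reference genes as the scale GRANTA519 ranked 16 of 36 for NCL, 15 for HSPD1 and 11 for SRM, with MYC at rank 36. WSU_DLCL2 then ranked 21 for MYC, and UPN1 was not the lowest mantle cell line for NME1 or SRM. CAD then ranked 1 in REC1 and 6 in SUDHL6. These lines were singled out after their values were seen.

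Ratios of counts within a library need no scaling factor, and they showed the targets tied more closely to each other than to MYC. The SD over 36 lines of the log2 ratio was 0.59 for NME1 with SRM and 0.59 for NCL with SRM, and 0.60 for NCL with NME1. Over the 21 pairs of targets its median was 0.70, against 1.22 over the 7 pairs with MYC. MYC itself varies more from line to line than 6 of the targets, which widens its ratios. The MYC to NCL log2 ratio ran from -5.58 in UPN1 to 0.33 in WSU_DLCL2. TERT had ratios as loose as MYC or looser, from 1.48 with CAD to 1.86 with MYC. Spearman's rho between targets had a median of 0.54 with TMM and 0.388 with library size, and for NCL with NME1 it was 0.838 and 0.696.

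**Figure D4:**
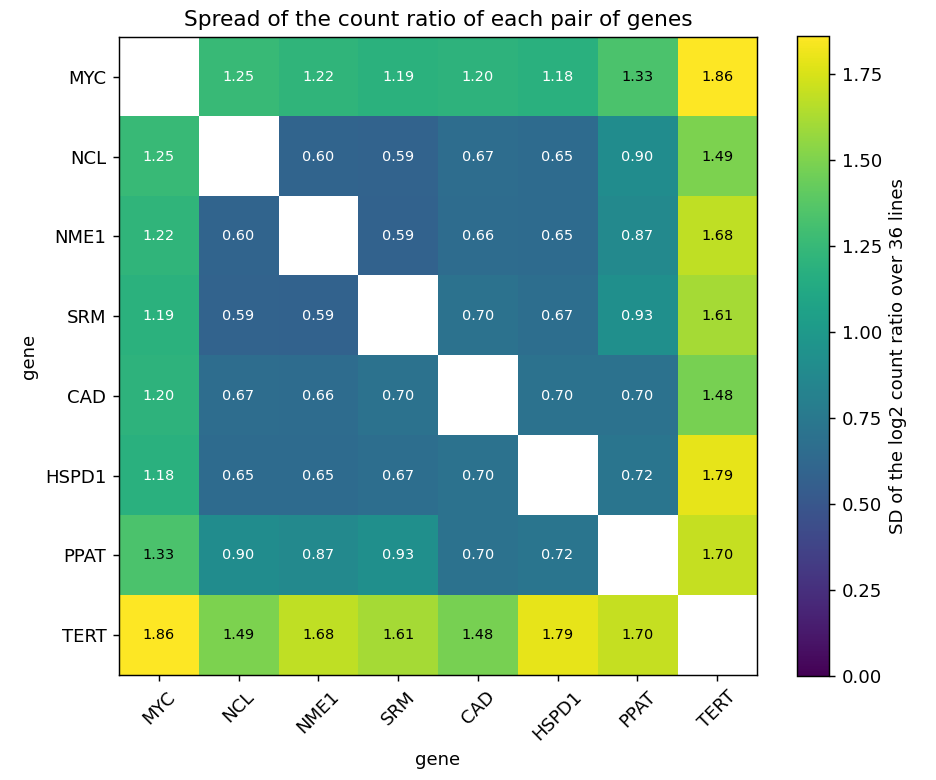
SD over 36 lines of the log2 ratio of counts for each pair of genes (rows and columns, colour scale in log2 units), which no scaling factor affects. NCL, NME1 and SRM form the pairs near 0.59, and the row of TERT reaches 1.86.

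For each target the gene most like it over 36 lines was found by Spearman's rho under TMM. NCL was most like U2AF1, a splicing factor (0.856), and NME1 most like EIF6, a ribosome assembly and translation factor (0.86). SRM was most like HSPA9, a mitochondrial chaperone (0.777), and CAD most like POLD2, a DNA polymerase subunit (0.779). TERT was most like EXO1, a DNA repair exonuclease (0.686 with TMM, 0.69 with library size). Among the genes most like MYC were MFNG and QDPR (0.707 each), DESI1 (0.686) and PMS2 (0.684), and with library size these values were lower, 0.541 for MFNG, 0.46 for QDPR, 0.396 for DESI1 and 0.482 for PMS2. The 5 lowest were MAGEC1 (-0.665), CADM1 (-0.65), RBPMS2 (-0.648), CXCL9 and TLR8 (-0.647 each).

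HSPD1 and PPAT were each most like the gene next door, transcribed the other way. HSPD1 was most like HSPE1 (0.862), its co-chaperonin, and the RefSeq start sites lie 105 bases apart. PPAT was most like PAICS (0.80), a later enzyme of purine synthesis, whose nearest RefSeq start site lies 137 bases away. The E-box shown for HSPD1 and that shown for PPAT also lie in the windows of HSPE1 and PAICS. The SD of the log2 ratio was 0.41 for HSPD1 to HSPE1, the lowest of HSPD1 with any of 2405 genes, whose median was 1.54. For PPAT to PAICS it was 0.39, again the lowest of 2405, whose median was 1.36. These ratios were examined after the likeness was seen. The annotated spans of HSPD1 and HSPE1 overlap on opposite strands, and whether counting used strand is not given in the sources used here, so shared reads cannot be told apart.

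MEC1 lay apart in both pairs and U2932 in the second. HSPE1 was 1534 CPM in MEC1, where HSPD1 was at its lowest, 1046 CPM, so the log2 ratio of HSPD1 to HSPE1 was -0.55 against a median of 0.85. PAICS was 3154 CPM in U2932, rank 15 of 36, while PPAT there was the highest of all lines. The log2 ratio of PPAT to PAICS was -1.93 in U2932 against a median of -3.09, and -2.08 in MEC1. PPAT in U2932 was therefore high relative to its neighbour. The rank of PAICS itself is that with TMM, where the factor of U2932 was 1.31. With library size alone U2932 had the highest level of all lines for PAICS as well as for PPAT.

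**Figure D5:**
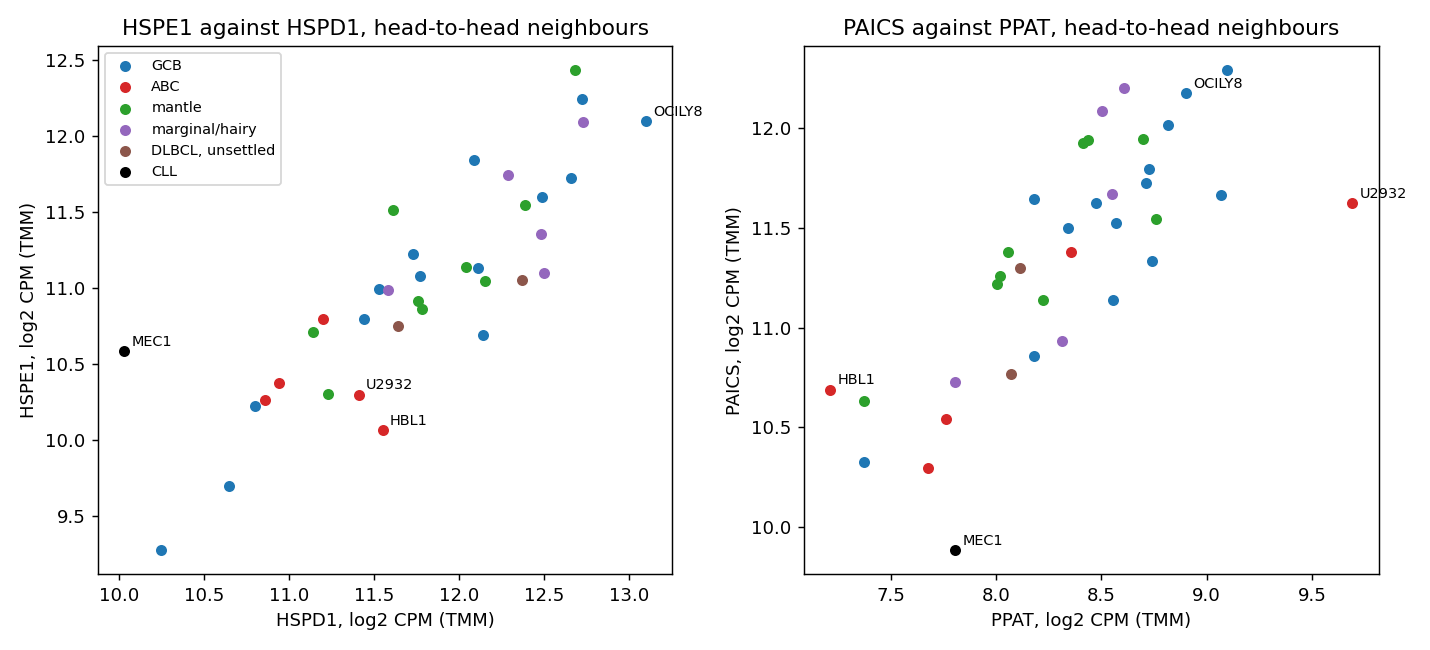
HSPE1 against HSPD1 and PAICS against PPAT (log2 CPM with TMM factors on all axes) in 36 lines, each point 1 line coloured by type. MEC1 lies off the first pair, with a log2 ratio of -0.55 where the median is 0.85, and U2932 and MEC1 off the second, with -1.93 and -2.08 where the median is -3.09.

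Lists of genes with related roles gave the surroundings of the targets under TMM. The median slope of all genes was 0.04 there, and 10.2% of all genes rose and 15.9% fell. The counts below are read against those shares, and no list was tested as a whole. Slopes went with abundance under TMM, and no list was compared with genes of like level. Of 9 genes of nucleotide synthesis tested 1 rose, PAICS (0.19 ± 0.06, adjusted p = 0.0298), and the median slope was 0.14. Of 5 ribosome and nucleolus genes 2 rose, RPL5 (0.34 ± 0.10), a ribosomal protein, and NOLC1 (0.27 ± 0.10), a nucleolar phosphoprotein, with a median of 0.21. Among 4 polyamine genes MAT2A, which makes S-adenosylmethionine, rose (0.31 ± 0.07). In a list of 8 translation factors and signalling kinases EIF6 and the kinases MTOR and RPS6KA1 rose. The glycolysis and glutamine list had 7 of 18 rising, among them HK2 (0.38 ± 0.10), the glucose transporter SLC2A1 (0.32 ± 0.10) and PDK1 (0.36 ± 0.12), all 18 slopes were positive, and the median was 0.24. It includes GAPDH, also a reference gene, whose slope was 0.24 (adjusted p = 0.0484).

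In the remaining lists few genes passed. Of 17 cell cycle genes known to be activated by MYC 0 passed, with a median slope of 0.06. Of 16 genes known to be repressed by MYC 1 fell, THBS1 (-0.78 ± 0.22), and 1 rose, DDIT3 (0.32 ± 0.11). Of 14 genes of the MYC network MAX (0.30 ± 0.08) and RUVBL1 (0.22 ± 0.08), a helicase of MYC-bound complexes, rose and MYCL fell (-0.34 ± 0.13). In the list of mitochondrial chaperones and import PHB2 rose (0.29 ± 0.07) and PPARGC1A, a coactivator of mitochondrial genes, fell (-0.48 ± 0.16), out of 7. Of 5 telomere genes other than TERT 0 passed. The falling genes THBS1, MYCL and PPARGC1A had low medians, 12, 14 and 35.3 CPM. Each was highest in MEC1, the library with the largest TMM factor. With library size, or with the TMM factor in the fit, 0 genes of any of these lists passed.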

How the data were processed

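Counts per target in 36 libraries were deposited by the authors as whole numbers without scaling; the submitters' processing notes name hg38 as the build. For the aligner and for strand, the sources used here give nothing. The authors' deposited log2 values equalled log2(count/factor + 1), with 1 factor per library, within 0.00527. Here 10 targets named ER and a number, treated as control probes (median 0.000209% of counts), were left out of totals and tests. Genes entered the tests if 4 or more lines had 10 CPM or more, and log2 CPM used a prior count of 2. Tests were edgeR 4.0.16 quasi-likelihood fits (threshold 0.05), with limma 3.58.1 and DESeq2 1.42.0 as alternatives. The fits were tested on simulated counts in which the TMM factors were taken as true and set rises and falls were balanced. That simulation therefore cannot show how the factor bears on the slopes. Members, lists and alternatives were chosen with earlier results of these data known. Genes named besides the members were those past the threshold in each list, at most 6 a list by absolute slope, the 5 most and 5 least like MYC (1 of them is not reported here), and the 1 most like each target. P-values between types measure the spread between lines.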

Additional observations from a re-analysis of the deposited data

Results flagged for a closer look

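The highest control probe of the MEC1 library had 424 counts, against a median of 10 over the libraries and 64 in the next highest, a signal outside the gene measurements. In that library SRM and HSPD1 were the lowest of the 36 lines with TMM, which gave it the largest factor, 1.87. Both ranked 33 with library size and 30 with reference genes. Over the 24 groups of 1 member in 1 type (ABC, mantle cell, and marginal zone or hairy cell), Dixon's criterion found no line far from the others.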

How the results depend on the processing

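Counts of genes rising with MYC were 373 with median-of-ratios factors, 423 with the authors' log2 values, 2 with upper-quartile factors, 2 with library size, 3 with reference genes, 0 with the TMM factor in the fit, 4 with lymphoma type in the fit and 12 without MEC1 and OCILY8, the last chosen after seeing the data. Counts falling were 5, 3 and 2 with upper-quartile factors, library size and reference genes, 255 at a filter of 50 CPM, 1 with the factor, 7 with type in the fit and 8 without MEC1 and OCILY8. Members rising numbered 0 under upper-quartile factors, library size, reference genes, the factor, type in the fit and without MEC1 and OCILY8, and 3 without MEC1 or without DOHH2. Over all genes 173 rose without MEC1 and 215 without DOHH2. PPAT had slopes of -0.0675, -0.0768 and -0.0900 under upper-quartile factors, library size and reference genes. Genes differing between types numbered 52 with the authors' log2 values, 273 with DESeq2 and 59 with voom, and DESeq2 called 3 pairwise differences of members. Leaving out each line gave 66 to 324 genes rising, 119 to 474 falling, 1 to 6 members rising and 110 to 162 genes differing between types; members called between types or in pairs were 0 throughout. The fit with lymphoma type used only the 33 lines of the 4 types. Apart from what each setting changes, the cause was not tested. No paired analysis was possible because the labels carry no replicate numbers and each line has 1 library. Depth limits few of these values: the lowest member level was 9.03 CPM.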
